A study of Mus musculus with 24 samples.

Results

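Dexamethasone alone was compared with no treatment after 24 h in bone marrow-derived macrophages, across all genes of the count table. The comparison uses 6 of the 24 RNA-seq libraries of the series, chosen by their labels: 3 of cells given 100 nM dexamethasone for 24 h and 3 of cells left untreated for 24 h. The table lists 55357 genes, of which 14985 had enough counts to be tested. The cells came from the leg bones of wild-type C57BL/6J mice aged 8 to 12 weeks and were grown in medium with M-CSF from L929 cell supernatant, which all groups share. No group carries a transgene or a deletion, and nothing in the labels tells whether replicates are separate mice or separate cultures. The p-values thus reflect the variation among replicate libraries, estimated over all 24 libraries of the series. This variation may be technical. A further pair of comparisons, of 6 libraries each, serves to show where the 24 h effect differs: 100 nM dexamethasone for 4 h against untreated cells at 4 h, and 100 nM dexamethasone with 100 ng LPS for 24 h against 100 ng LPS alone for 24 h. LPS is a bacterial cell wall component that activates macrophages, and the labels do not state the volume it was given in.

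Dexamethasone is a synthetic glucocorticoid. It binds the glucocorticoid receptor, a transcription factor held in the cytoplasm by heat shock proteins, which then enters the nucleus, raises genes that carry its binding element and holds down others, many of them through the inflammatory factors NF-kB and AP-1. In macrophages it is known for damping cytokine production and for favouring scavenging and the uptake of dead cells.

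The 6 libraries held 19082248 to 22744879 counts. Levels are given as CPM, the counts of a gene scaled by a library size that was multiplied by a scaling factor. They are not shares of all counts and are not divided by gene length. A level can thus be compared between libraries, but not between genes as an amount of transcript. Rankings and sums of levels below are of counts and also depend on gene length. The first principal component of the 6 libraries took 82.8% of their variance and separated the treatments, and the second took 4.6%. The 10 most abundant genes took 13.3 to 13.9% of the counts with dexamethasone and 10.4 to 10.9% without, and mitochondrially encoded genes 1.42 to 1.64% and 1.30 to 1.36%. All 12 libraries of 24 h had 8473 to 15577 counts of Xist, the X inactivation transcript of female cells, and none of the Y-linked gene Kdm5d, whereas all 12 libraries of 4 h had no Xist count and 381 to 1179 counts of Kdm5d. The labels give no sex, and the 4 h and 24 h libraries therefore differ in the sex of the cells as well as in time. Any difference between the effects at 4 h and 24 h cannot be told apart from a difference between sexes. The comparison within 24 h is not touched by it. 

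The cells carried the markers of macrophages in both groups. Csf1r, the M-CSF receptor, had 3144, 2885 and 3022 CPM in dexamethasone-treated cells, against 2584, 2828 and 2542 CPM in untreated cells (log2 fold change 0.19 ± 0.05, adjusted p = 0.00089). Adgre1, which codes for F4/80, had 1636, 1479 and 1526 CPM with dexamethasone, against 1731, 1979 and 1662 CPM without (log2 fold change -0.21 ± 0.06, adjusted p = 0.0041). The call of Adgre1 was lost without untreated replicate 2 (-0.14, adjusted p = 0.076). Of 10 macrophage markers 3 rose and 6 fell, and their sum, most of it lysozyme 2, stood at 30760 to 35040 CPM with dexamethasone and 23440 to 25580 CPM without. Markers of other cells were low, and their part in the results was not tested. Dendritic cell markers summed to 13.1 to 15.2 CPM with dexamethasone and 18.6 to 24.7 CPM without (2 of 11 higher, 5 lower), lymphocyte markers to 74.2 to 102 CPM with dexamethasone and 265 to 286 CPM without (none of 4 higher, 3 lower, Gzma at 0) and mast cell and basophil markers to 0.663 to 1.34 CPM with dexamethasone and 10.96 to 12.1 CPM without (none of 5 higher, 2 lower, Fcer1a at 0). Neutrophil markers summed to 208 to 232 CPM with dexamethasone and 105 to 109.8 CPM without (1 of 13 higher, 3 lower, Ly6g at 0), stromal and endothelial markers to 6.67 to 9.28 CPM with dexamethasone and 16.2 to 23.6 CPM without (1 of 6 higher, 2 lower, Col3a1 and Dcn at 0), erythroid and megakaryocyte markers to 2.82 to 3.61 CPM with dexamethasone and 0.716 to 1.06 CPM without (1 of 1 higher) and osteoclast markers to 271 to 300 CPM with dexamethasone and 487 to 565 CPM without (2 of 8 higher, 4 lower). Of these counts, the 2 dendritic rises became 1 without any 1 of the 6 libraries and the 5 falls became 3 without untreated replicate 1. The 3 neutrophil falls became 1 without dexamethasone replicate 2, and the 2 stromal falls became 1 without untreated replicate 2, dexamethasone replicate 2 or dexamethasone replicate 3. Single genes made up most of some sums: Flt3 of the dendritic sum with dexamethasone, and Kit of the mast cell and basophil sum without. Such sums mainly follow that gene. In bulk RNA, fewer cells of a type and less RNA per cell cannot be told apart.

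The spread of the effect was wide. With dexamethasone 3282 genes were higher (21.9% of those tested) and 3977 were lower (26.5%) at an adjusted p below 0.05, by edgeR's quasi-likelihood F test, adjusted by Benjamini-Hochberg over all 14985 genes. Most changes were small: 2566 of the rises and 2602 of the falls were under 2-fold. At least 2-fold were 716 rises (4.78%) and 1375 falls (9.18%), so that the larger changes were more often falls, and beyond 8-fold there were 118 rises and 266 falls. The median log2 fold change over all tested genes was -0.004. Of the 7259 genes called, 7090 had groups that did not overlap (3196 higher and 3894 lower), and of all tested genes 60.0% had groups that did not overlap. Tested against a change of more than 2-fold rather than against no change, 338 genes were higher and 874 lower.

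**Figure D1:**
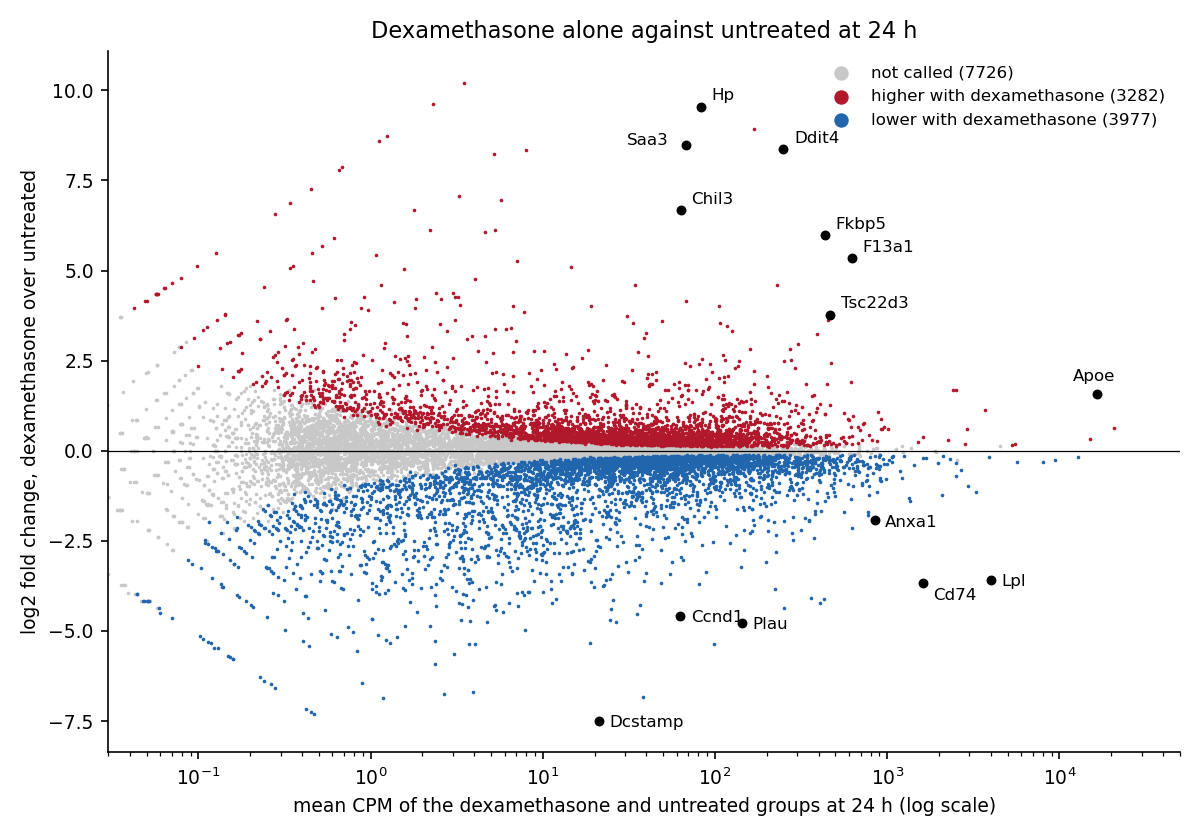
Each point is 1 of the 14985 tested genes, with its mean level over the 6 libraries in CPM on a log axis across and its log2 fold change, dexamethasone over untreated at 24 h, on the vertical axis. The 3282 higher genes are red, the 3977 lower genes are blue and the 7726 others grey; fitted folds of genes with few counts depend on the prior count of the fit.

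Classical targets of the glucocorticoid receptor were still high after 24 h. Of 26 tested, 18 rose and 4 fell, with a median log2 fold change of 1.75 against -0.004 over all genes. Their summed level was 4828, 4522 and 4656 CPM in dexamethasone-treated libraries, against 1054, 1041 and 1050 CPM in untreated libraries. The list gathers genes known as targets in many tissues, so its direction is a check of the treatment rather than a result.

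Fkbp5 (ENSMUSG00000024222.18, chromosome 17, 28618068 to 28736501, minus strand, positions as in the deposited table), a co-chaperone that lowers the receptor's affinity for hormone, had 895, 825 and 842 CPM in dexamethasone-treated cells, against 16.3, 11.1 and 13.3 CPM in untreated cells (log2 fold change 5.98 ± 0.08, adjusted p = 5.9e-37). Ddit4 (ENSMUSG00000020108.5, chromosome 10, 59785491 to 59787656, minus strand), an inhibitor of the growth kinase complex mTORC1, had 511, 465 and 518 CPM with dexamethasone, against 1.63, 1.13 and 1.79 CPM without (log2 fold change 8.37 ± 0.10, adjusted p = 3.2e-37). In both genes the lowest treated library lay far above the highest untreated one. Tsc22d3, the glucocorticoid-induced leucine zipper, had 898, 847 and 864 CPM with dexamethasone, against 58.6, 66.6 and 65.2 CPM without (log2 fold change 3.78 ± 0.07, adjusted p = 1.4e-32). Klf9, a transcription factor, had 196, 200.1 and 197 CPM with dexamethasone, against 18.8, 15.6 and 16.8 CPM without (log2 fold change 3.54 ± 0.09, adjusted p = 1.9e-26). Zbtb16, another transcription factor, had 59.7, 64.4 and 62.0 CPM with dexamethasone, against 9.28, 10.6 and 8.02 CPM without (log2 fold change 2.73 ± 0.12, adjusted p = 4.9e-19). These 3 genes also showed no overlap between the groups. Hif3a, a hypoxia-inducible factor subunit, had 731 counts over the 3 treated libraries against 2 over the 3 untreated ones, a ratio of 363.6 (95% interval 100.3 to 3008 from the counts). Glul, glutamine synthetase, was among the more abundant targets, with 1022, 933 and 971 CPM with dexamethasone, against 255, 273 and 257 CPM without (log2 fold change 1.90 ± 0.06, adjusted p = 1.5e-25).

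The targets did not all move up. Ccnd2, a cyclin, had 0.290, 0.535 and 0.210 CPM in dexamethasone-treated cells, against 5.16, 4.46 and 3.76 CPM in untreated cells (log2 fold change -3.69 ± 0.26, adjusted p = 1.2e-13). Cdkn1c, a cell cycle inhibitor known as a target in other tissues, had 6.14, 7.85 and 7.51 CPM with dexamethasone, against 26.8, 31.7 and 22.2 CPM without (log2 fold change -1.91 ± 0.14, adjusted p = 2e-14). Rgs2, a regulator of G protein signalling, had 80.1, 76.2 and 80.8 CPM with dexamethasone, against 250.1, 211 and 246 CPM without (log2 fold change -1.57 ± 0.08, adjusted p = 1.7e-16). In each of the 3 every treated library lay below every untreated one. Irs2 and Errfi1 did not pass the test, with log2 fold changes of 0.02 ± 0.12 and 0.02 ± 0.16. Pdk4, which restrains pyruvate oxidation, was below the count filter, with 1 count in the treated and none in the untreated libraries.

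The receptor itself was slightly lower. Nr3c1, the glucocorticoid receptor, had 85.5, 89.2 and 86.0 CPM in dexamethasone-treated cells, against 119, 124 and 112 CPM in untreated cells (log2 fold change -0.44 ± 0.06, adjusted p = 2.8e-08). Of 16 genes of the receptor, its chaperones, coregulators and steroid exporters, 4 rose and 8 fell (median -0.24). The shares of all genes were 21.9% higher and 26.5% lower. Hsp90aa1, a heat shock protein that folds the receptor, had 99, 104 and 94.2 CPM with dexamethasone, against 242, 221 and 217 CPM without (log2 fold change -1.19 ± 0.05, adjusted p = 3.9e-21), and Ncoa1, a coactivator, had 97.9, 112 and 107 CPM with dexamethasone, against 52.5, 58.4 and 50.7 CPM without (log2 fold change 0.97 ± 0.08, adjusted p = 1.5e-12). The chaperones Fkbp4 and Ptges3 were not called, at 0.03 ± 0.07 and -0.01 ± 0.05.

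Of the 21 tested targets with a promoter window in RefSeq (GRCm38.p6, 250 bases before to 50 after each start), 2 held the palindrome GNACA, 3 bases, TGTNC, which the receptor's dimer recognises, against 145 of all 27025 genes with a window (0.537%). Both are shown because they place the element beside the start of genes of this list, and the capitals mark the palindrome. They and the other genes with a printed promoter were chosen for their motif after the values had been seen. The Sgk1 stretch lies at chr10:21993677-21993739 on the plus strand, with the palindrome 188 to 176 bases before the start, and the Mt1 stretch at chr8:94178970-94179032 on the plus strand, with it 94 to 82 bases before the start.
Sgk1: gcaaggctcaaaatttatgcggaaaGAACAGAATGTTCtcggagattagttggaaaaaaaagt
Mt1: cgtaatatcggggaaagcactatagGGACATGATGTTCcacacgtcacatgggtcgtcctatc
Sgk1, a kinase that controls ion transport, had 107, 103 and 97.3 CPM with dexamethasone, against 57.0, 70.2 and 59.7 CPM without (log2 fold change 0.72 ± 0.07, adjusted p = 6.4e-10). Mt1, a metallothionein that binds zinc and copper, had 147, 130.3 and 133 CPM with dexamethasone, against 88.6, 80.5 and 83.6 CPM without (log2 fold change 0.70 ± 0.10, adjusted p = 1.1e-05). Neither was among the strongest rises of the list. In the windows of genes called at 2-fold or more the palindrome stood in 3 of 460 higher genes (0.652%) and in 0.309% of 970 lower genes.

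The largest rises included genes of secreted and cell surface proteins. These rises, and the largest falls, gains and losses given next, were taken from called genes whose groups did not overlap. Their lack of overlap is thus part of the choice. Hp, haptoglobin, which binds free haemoglobin, had 188, 152 and 156 CPM in dexamethasone-treated cells, against 0.136, 0.157 and 0.358 CPM in untreated cells (log2 fold change 9.55 ± 0.23, adjusted p = 2.4e-18). Jaml, an adhesion molecule of leukocytes, had 355, 321 and 331 CPM with dexamethasone, against 0.362, 1.09 and 0.537 CPM without (log2 fold change 8.92 ± 0.14, adjusted p = 5.6e-30); without untreated replicate 2 the log2 fold change was 9.52. Saa3, an acute phase protein, had 149, 114 and 140.1 CPM with dexamethasone, against 0.770, 0.274 and 0.0896 CPM without (log2 fold change 8.48 ± 0.27, adjusted p = 8.8e-15); without untreated replicate 1 it was 9.44. All 3 were close to 0 in untreated cells and above 100 CPM in every treated library. Chil3, a chitinase-like protein often used as a marker of alternative activation, had 138, 115 and 124 CPM with dexamethasone, against 0.996, 1.29 and 1.39 CPM without (log2 fold change 6.67 ± 0.24, adjusted p = 1.7e-14). F13a1, the catalytic subunit of coagulation factor XIII, had 1354, 1092 and 1196 CPM with dexamethasone, against 27.1, 27.5 and 34.9 CPM without (log2 fold change 5.35 ± 0.29, adjusted p = 3.8e-11). Lcn2, which binds bacterial siderophores and is in the list of glucocorticoid targets, had 14.1, 9.77 and 7.39 CPM with dexamethasone, against 0.181, 0.157 and 0.0896 CPM without (log2 fold change 6.13 ± 0.46, adjusted p = 2.2e-09). Among these 3, the treated libraries of Lcn2 spread the most.

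Ms4a8a, a membrane protein, had 1119 counts over the treated and 3 over the untreated libraries, a ratio of 371 (95% interval 126.6 to 1802). Its fitted log2 fold change was 8.35, and 9.13 without untreated replicate 2. Vcan, the matrix proteoglycan versican, had 29.02, 30.1 and 26.4 CPM with dexamethasone, against 0.725, 1.21 and 0.492 CPM without (log2 fold change 5.09 ± 0.23, adjusted p = 2.1e-13). Strip2 had 12.9, 14.9 and 13.7 CPM with dexamethasone, against 0.407, 0.352 and 0.313 CPM without (log2 fold change 5.25 ± 0.21, adjusted p = 1.5e-21). Mmp8, the neutrophil collagenase and a member of the neutrophil marker list, had 142, 124 and 117 CPM with dexamethasone, against 7.79, 5.44 and 8.42 CPM without (log2 fold change 4.15 ± 0.16, adjusted p = 4.8e-15). It made up most of the neutrophil sum in treated cells, while S100a9, another neutrophil gene, was not called at -1.10 ± 0.53.

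**Figure D2:**
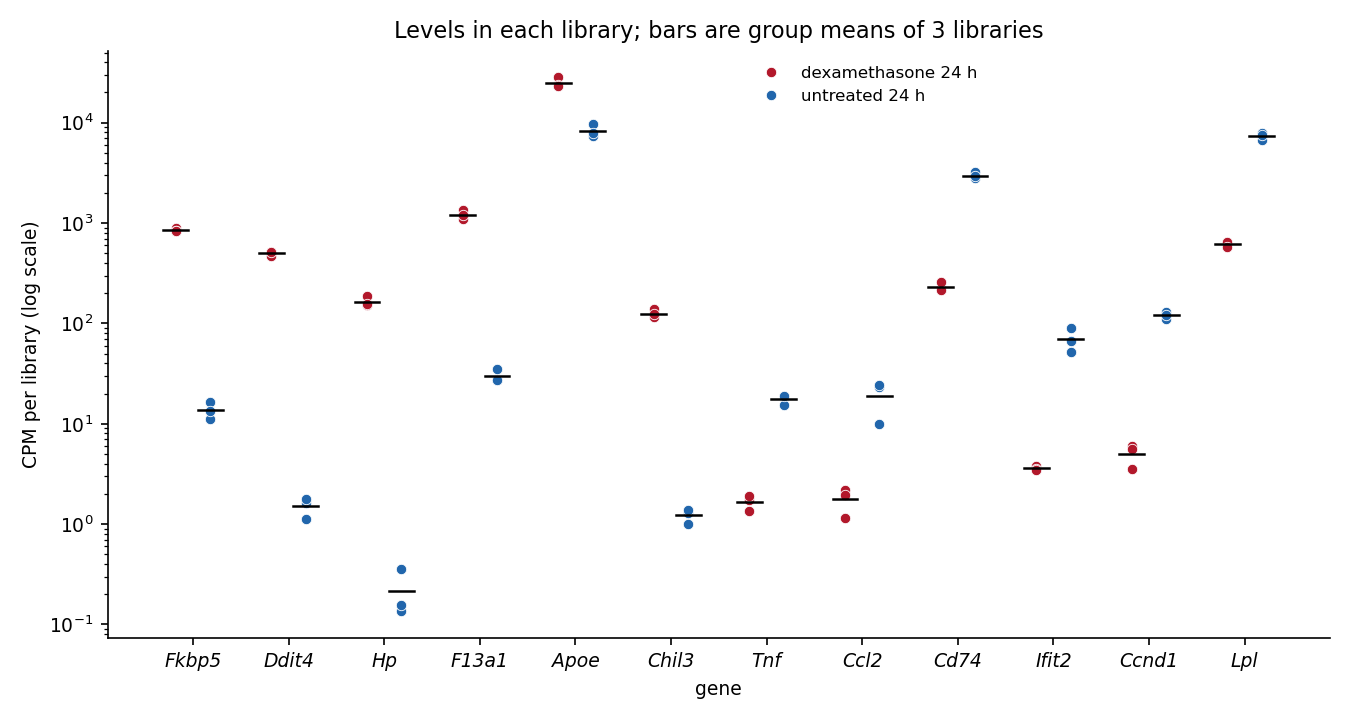
For 12 genes along the horizontal axis, the vertical log axis gives the level in CPM in the 3 dexamethasone-treated libraries in red and, to their right, the 3 untreated libraries in blue, all at 24 h; points are libraries and bars group means. The points of the groups do not overlap in any of the 12 genes, among them Fkbp5 with 825 to 895 CPM against 11.1 to 16.3 CPM and Tnf with 1.34 to 1.92 CPM against 15.5 to 18.8 CPM. For the largest rises, falls, gains and losses among them, this was a condition of their choice.

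The largest falls included genes of cell fusion, proteolysis and transcription. Dcstamp, which macrophages need to fuse, had 0.249, 0.178 and 0.252 CPM in dexamethasone-treated cells, against 52.9, 24.7 and 48.1 CPM in untreated cells (log2 fold change -7.49 ± 0.44, adjusted p = 1.6e-10). Plau, urokinase, which activates plasminogen, had 8.79, 11.1 and 10.2 CPM with dexamethasone, against 357, 161 and 307 CPM without (log2 fold change -4.78 ± 0.28, adjusted p = 1e-10). In Plau and Dcstamp untreated replicate 2 was the lowest untreated library. Egr2, a transcription factor, had 1.49, 2.50 and 1.76 CPM with dexamethasone, against 59.6, 38.8 and 55.4 CPM without (log2 fold change -4.74 ± 0.24, adjusted p = 4.5e-14). Kit, the stem cell factor receptor and a mast cell marker, had 0.166, 0.803 and 0.462 CPM with dexamethasone, against 9.64, 10.7 and 10.3 CPM without (log2 fold change -4.42 ± 0.35, adjusted p = 9e-13). Slamf9, an immune receptor of the SLAM family, had 1.74, 1.78 and 1.93 CPM with dexamethasone, against 47.0, 47.6 and 47.6 CPM without (log2 fold change -4.70 ± 0.18, adjusted p = 9.3e-17). The untreated libraries of Slamf9 were nearly identical to each other.

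The others by the same rule were Pcp4l1 (log2 fold change -5.37 ± 0.19), Nes, the intermediate filament nestin (-5.34 ± 0.28), Cmah, a sialic acid hydroxylase (-4.97 ± 0.32), Efr3b (-4.54 ± 0.22), Ccnd1, cyclin D1 (-4.59 ± 0.16), and Dnmt3aos (-4.48 ± 0.32). Dnmt3aos runs antisense to Dnmt3a, and the counting used no strand, so reads of the 2 cannot be told apart where they overlap.

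The largest gain by level was that of Apoe. Apoe, apolipoprotein E, had 28230, 23520 and 22950 CPM in dexamethasone-treated cells, against 7414, 9686 and 7931 CPM in untreated cells (log2 fold change 1.58 ± 0.15, adjusted p = 1e-07). Lyz2, lysozyme 2, had 27320, 23610 and 24840 CPM with dexamethasone, against 15510, 17120 and 16090 CPM without (log2 fold change 0.64 ± 0.06, adjusted p = 1.4e-11). Psap, the precursor of lysosomal saposins, had 16950, 17060 and 16660 CPM with dexamethasone, against 13120, 13420 and 13540 CPM without (log2 fold change 0.34 ± 0.05, adjusted p = 3e-07). Apoe rose the most of the 3 by fold. Selenop, a selenium transport protein, had 5256, 5137 and 4807 CPM with dexamethasone, against 2189, 2532 and 2212 CPM without (log2 fold change 1.13 ± 0.11, adjusted p = 2.3e-08). Serinc3, a membrane protein, had 4049, 3710 and 3684 CPM with dexamethasone, against 1118, 1348 and 1099 CPM without (log2 fold change 1.68 ± 0.06, adjusted p = 2.1e-23). Stab1, a scavenger receptor, had 3520, 3567 and 3886 CPM with dexamethasone, against 1045, 1287 and 1102 CPM without (log2 fold change 1.68 ± 0.11, adjusted p = 1.3e-10).

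The loss by level was led by Lpl, lipoprotein lipase, which frees fatty acids from lipoproteins, with 622, 647 and 579 CPM in dexamethasone-treated cells, against 7858, 6715 and 7571 CPM in untreated cells (log2 fold change -3.58 ± 0.19, adjusted p = 1.9e-11). Cd74, the invariant chain of MHC class II, had 226, 214 and 259 CPM with dexamethasone, against 2796, 3196 and 2931 CPM without (log2 fold change -3.67 ± 0.20, adjusted p = 2.6e-11). Lgals3, galectin 3, had 2150, 1997 and 1996 CPM with dexamethasone, against 4718, 4259 and 4645 CPM without (log2 fold change -1.15 ± 0.08, adjusted p = 4.2e-13). Among these 3, Lpl and Cd74 fell by far the most. Actb, the beta actin often used as a reference gene, had 2133, 1909 and 1883 CPM with dexamethasone, against 3758, 3934 and 4042 CPM without (log2 fold change -0.99 ± 0.06, adjusted p = 4.6e-17). Sirpa, the receptor for the signal CD47, had 1255, 1264 and 1212 CPM with dexamethasone, against 2847, 2993 and 2879 CPM without (log2 fold change -1.23 ± 0.04, adjusted p = 4.1e-23). Gpnmb, a glycoprotein of lysosome-rich macrophages, changed least by fold among these genes (-0.32 ± 0.06, adjusted p = 8.4e-06).

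The proteins held to carry the glucocorticoid brake on inflammation did not move as a block. Of 17 tested, 6 rose and 6 fell (median 0.13). Dusp1, a phosphatase that switches off MAP kinases, had 107, 109 and 109 CPM in dexamethasone-treated cells, against 32.1, 30.7 and 29.2 CPM in untreated cells (log2 fold change 1.82 ± 0.07, adjusted p = 1.8e-20). Nfkbia, the inhibitor that keeps NF-kB in the cytoplasm, had 159, 141 and 153 CPM with dexamethasone, against 69.7, 69.4 and 67.9 CPM without (log2 fold change 1.13 ± 0.06, adjusted p = 8.2e-19). Socs3, which blocks cytokine receptors, had 17.3, 15.2 and 16.2 CPM with dexamethasone, against 2.99, 4.26 and 2.91 CPM without (log2 fold change 2.25 ± 0.16, adjusted p = 2.3e-11). These rises had no overlap. Anxa1, annexin A1, held in textbooks to be raised by glucocorticoids, had 335, 369 and 349 CPM with dexamethasone, against 1483, 1132 and 1414 CPM without (log2 fold change -1.94 ± 0.07, adjusted p = 4.9e-22). Il1rn, the interleukin 1 receptor antagonist, had 3.69, 3.52 and 3.02 CPM with dexamethasone, against 27.8, 20.6 and 24.6 CPM without (log2 fold change -2.83 ± 0.17, adjusted p = 2.6e-11). Il10, an anti-inflammatory cytokine, had 1.87, 1.56 and 1.76 CPM with dexamethasone, against 5.30, 5.24 and 3.94 CPM without (log2 fold change -1.48 ± 0.22, adjusted p = 4.3e-06). In these 3 each treated library lay below each untreated one. Zfp36, which destabilises cytokine mRNA, was also lower, at -0.38 ± 0.08 (adjusted p = 0.0003), and Tnfaip3, an NF-kB inhibitor, was not called at 0.13 ± 0.10.

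Inflammatory cytokines were low in untreated cells, which had met no microbial stimulus, and lower with dexamethasone. Of 18 tested, 9 fell and 2 rose (median -0.61). Tnf had 1.74, 1.92 and 1.34 CPM in dexamethasone-treated cells, against 18.4, 15.5 and 18.8 CPM in untreated cells (log2 fold change -3.39 ± 0.13, adjusted p = 4.9e-22). Il1b had 0.539, 0.848 and 0.714 CPM with dexamethasone, against 2.13, 2.19 and 2.10 CPM without (log2 fold change -1.61 ± 0.29, adjusted p = 5e-05). Tnfsf10, a death ligand, had 0.829, 1.21 and 0.965 CPM with dexamethasone, against 2.99, 4.81 and 2.78 CPM without (log2 fold change -1.84 ± 0.36, adjusted p = 0.00024). The groups did not overlap in any of the 3. Il18, the inflammasome substrate, was higher, with 10.5, 7.09 and 8.94 CPM with dexamethasone, against 4.08, 5.08 and 5.06 CPM without (log2 fold change 0.90 ± 0.17, adjusted p = 5.2e-05). Tnfsf13b, the B cell factor BAFF, was the other rise (0.49 ± 0.21, adjusted p = 0.049), and this call was lost without any 1 of the 6 libraries (adjusted p between 0.052 and 0.26), which leaves 1 rise. Il6 was listed at 0 in 5 of the 6 libraries and Il15 was not called (0.15 ± 0.10).

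Of 23 chemokines tested, 14 fell and 2 rose, and the median log2 fold change was -2.15; the 2 rises became 1 without dexamethasone replicate 3. Ccl2, which attracts monocytes, had 1.16, 2.19 and 1.93 CPM in dexamethasone-treated cells, against 23, 9.90 and 24.2 CPM in untreated cells (log2 fold change -3.43 ± 0.34, adjusted p = 1.7e-07). Cxcl10, an interferon-induced attractant of T cells, had 0.0829, 0.0892 and 0.0420 CPM with dexamethasone, against 6.93, 10.1 and 6.403 CPM without (log2 fold change -6.68 ± 0.46, adjusted p = 2.1e-10). Ccl22, a ligand of the T cell receptor CCR4, had 0, 0.402 and 0 CPM with dexamethasone, against 2.26, 1.88 and 2.19 CPM without (log2 fold change -3.98 ± 0.71, adjusted p = 0.00012), and -8.48 without dexamethasone replicate 2, which held all the treated counts. The list's summed level hardly differed, at 1441, 1367 and 1291 CPM in dexamethasone-treated libraries, against 1626, 1370 and 1571 CPM in untreated libraries. It rests on Ccl9 and Ccl6, 2 abundant attractants that were not called: Ccl9 had 904, 835 and 769 CPM with dexamethasone, against 880.1, 722 and 842 CPM without (0.04 ± 0.08), and its groups overlapped. Ccl24, an eosinophil attractant, was higher at a low level, with 1.04, 1.11 and 1.01 CPM with dexamethasone, against 0.317, 0.157 and 0.313 CPM without (log2 fold change 2.00 ± 0.59, adjusted p = 0.005).

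Of 17 chemoattractant receptors 10 fell and 1 rose (median -0.50); without dexamethasone replicate 3 there were 2 rises. Ccr2, the receptor for Ccl2, had 23.2, 23.1 and 19.2 CPM in dexamethasone-treated cells, against 94.8, 102 and 91.1 CPM in untreated cells (log2 fold change -2.13 ± 0.14, adjusted p = 4.3e-11). Cx3cr1, the fractalkine receptor, had 20.4, 14.99 and 13.3 CPM with dexamethasone, against 80.4, 99.5 and 79.1 CPM without (log2 fold change -2.41 ± 0.14, adjusted p = 6.1e-12). Ccr3, an eotaxin receptor, had 1.41, 0.892 and 1.09 CPM with dexamethasone, against 23.1, 19.2 and 22.1 CPM without (log2 fold change -4.23 ± 0.24, adjusted p = 8.9e-15). Each of these 3 fell with no overlap. Ccr7, which guides cells to lymph nodes, had no count in treated libraries and 34 in untreated ones, at least 11.4-fold lower against a floor of 3 counts over the group. The rise was Cxcr4, the receptor that retains cells in bone marrow, with 457, 506 and 448 CPM with dexamethasone, against 223, 266 and 208 CPM without (log2 fold change 1.02 ± 0.14, adjusted p = 5.2e-06).

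Of 19 genes of the Toll-like receptor pathway, which senses microbes, 12 rose and 4 fell (median 0.26). At least 2-fold were 1 of the rises and 2 of the falls, and the summed levels overlapped, at 2093, 2028 and 1957 CPM in dexamethasone-treated libraries, against 2009, 2094 and 1944 CPM in untreated libraries. Tlr5, the flagellin receptor, had 7.59, 7.23 and 6.25 CPM in dexamethasone-treated cells, against 0.951, 0.743 and 0.627 CPM in untreated cells (log2 fold change 3.18 ± 0.27, adjusted p = 9.1e-12). Tlr4, the LPS receptor, had 152, 157 and 137 CPM with dexamethasone, against 109, 123 and 103 CPM without (log2 fold change 0.41 ± 0.07, adjusted p = 1.6e-06). Its co-receptor Cd14 had 354, 309.5 and 332 CPM with dexamethasone, against 485, 493 and 460.3 CPM without (log2 fold change -0.53 ± 0.06, adjusted p = 5.8e-10). So Tlr4 was higher and Cd14 lower, both with no overlap. Tlr7, an RNA sensor, had 659.6, 669.9 and 639 CPM with dexamethasone, against 254, 310.0 and 247 CPM without (log2 fold change 1.28 ± 0.07, adjusted p = 1.3e-16). Tlr1, a partner of Tlr2 for lipopeptides, fell (-1.37 ± 0.11, adjusted p = 3.9e-10), as did the kinase Irak2 (-1.09 ± 0.07, adjusted p = 1.9e-16).

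Of 18 NF-kB subunits and inhibitors 5 rose and 8 fell (median -0.06). Tnip3, an NF-kB inhibitor, had 11.8, 13.7 and 10.5 CPM with dexamethasone, against 114, 91.7 and 98.3 CPM without (log2 fold change -3.08 ± 0.08, adjusted p = 9.4e-26). The subunit Rela was not called, with 94.6, 90.1 and 98.7 CPM with dexamethasone, against 94.5, 96.2 and 93.2 CPM without (-0.00 ± 0.05). Of 16 inflammasome genes 6 rose and 7 fell (median -0.10). Casp4, caspase 11, which senses intracellular LPS in mice, had 40.6, 36.2 and 40.7 CPM with dexamethasone, against 21.8, 21.2 and 19.1 CPM without (log2 fold change 0.92 ± 0.07, adjusted p = 2.5e-13). Gsdmd, the pore protein of pyroptosis, had 129, 124 and 139 CPM with dexamethasone, against 97.0, 98.8 and 96.2 CPM without (log2 fold change 0.42 ± 0.06, adjusted p = 1.1e-07). Nlrp1b, an inflammasome sensor, had 14.9, 17.6 and 18.1 CPM with dexamethasone, against 46.6, 49.6 and 47.2 CPM without (log2 fold change -1.50 ± 0.10, adjusted p = 6.3e-15).

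Interferon-stimulated genes fell nearly throughout. Of 40 tested, 37 fell and 1 rose, the median log2 fold change being -1.65, and 29 of the falls were at least 2-fold. Their summed level was 1612, 1654 and 1589 CPM in dexamethasone-treated libraries, against 2868, 3501 and 2698 CPM in untreated libraries. Untreated replicate 2 was the highest, and all 3 treated libraries lay below the lowest untreated one.

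Ifit2, an inhibitor of viral translation, had 3.81, 3.57 and 3.44 CPM in dexamethasone-treated cells, against 67.4, 90.6 and 51.9 CPM in untreated cells (log2 fold change -4.28 ± 0.29, adjusted p = 7e-10). Ifi44, an interferon-induced protein of the cytoplasm, had 0.290, 0.402 and 0.336 CPM with dexamethasone, against 3.85, 9.70 and 5.82 CPM without (log2 fold change -4.24 ± 0.56, adjusted p = 5.2e-06). Ifit3b had 0.373, 0.357 and 0.294 CPM with dexamethasone, against 7.38, 12.6 and 7.48 CPM without (log2 fold change -4.74 ± 0.39, adjusted p = 3.6e-09), though it is nearly identical to Ifit3 and only reads with a single place in the genome were counted. In all 3 genes the highest value was that of untreated replicate 2, and the groups did not overlap. Samhd1, which breaks down nucleotides needed by viruses, was the only rise, with 442, 458 and 462 CPM with dexamethasone, against 393, 427 and 390.0 CPM without (log2 fold change 0.17 ± 0.06, adjusted p = 0.018). Its call was lost without untreated replicate 1 (adjusted p = 0.075), untreated replicate 3 (0.086) or dexamethasone replicate 3 (0.060), which leaves no rise, and without untreated replicate 2 there were 2 rises. Ifi204 and Slfn8 were not called, at 0.20 ± 0.13 and 0.03 ± 0.10.

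The guanylate-binding proteins and immunity-related GTPases, which attack vacuoles that hold microbes, fell in 12 of 14 and rose in 1 (median -1.70). Iigp1 had 0.207, 0.223 and 0.252 CPM in dexamethasone-treated cells, against 4.48, 5.71 and 3.58 CPM in untreated cells (log2 fold change -4.31 ± 0.54, adjusted p = 2.4e-06). Gbp8 had 0.373, 0.402 and 0.546 CPM with dexamethasone, against 2.90, 2.27 and 2.46 CPM without (log2 fold change -2.51 ± 0.39, adjusted p = 1.5e-06). Tgtp2, nearly identical to Tgtp1, had 0.539, 0.848 and 0.420 CPM with dexamethasone, against 5.89, 9.19 and 4.08 CPM without (log2 fold change -3.43 ± 0.39, adjusted p = 7.5e-07). The levels were low and the groups did not overlap. Gbp7 was the rise, with 19.3, 21.5 and 19.3 CPM with dexamethasone, against 13.1, 14.5 and 12.9 CPM without (log2 fold change 0.56 ± 0.13, adjusted p = 0.00072). The list summed to 126, 131 and 119.8 CPM in dexamethasone-treated libraries, against 228, 286 and 214 CPM in untreated libraries.

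The interferon response motif, written GAAA, 2 bases, GAAA on either strand, stood in the promoter windows of 18 of 29 interferon-stimulated genes (62.1%) and of all 9 guanylate-binding genes with a window, against 3.99% of all genes with a window. 4 promoters with it are shown, with the motif in capitals, overlapping copies joined. The Ifit1 stretch lies at chr19:34640779-34640838 on the plus strand, that of Isg15 at chr4:156200850-156200909 on the minus strand, that of Gbp2 at chr3:142620579-142620638 on the plus strand and that of Irgm1 at chr11:48871421-48871469 on the minus strand. The motif copy nearest the start lies 85 to 76 bases before the start in Ifit1 and 24 to 15 in Irgm1.
Ifit1: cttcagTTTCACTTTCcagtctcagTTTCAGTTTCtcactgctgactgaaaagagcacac
Isg15: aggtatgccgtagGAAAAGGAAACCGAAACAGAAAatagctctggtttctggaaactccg
Gbp2: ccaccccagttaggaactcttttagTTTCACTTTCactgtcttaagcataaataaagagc
Irgm1: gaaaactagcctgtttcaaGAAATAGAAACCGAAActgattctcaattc
Ifit1, which binds viral RNA without a methylated cap, had 2.69, 2.59 and 2.23 CPM with dexamethasone, against 21.8, 36.7 and 22.2 CPM without (log2 fold change -3.43 ± 0.27, adjusted p = 7.1e-09). Isg15, a ubiquitin-like modifier, had 2.82, 3.26 and 3.48 CPM with dexamethasone, against 17.7, 23.2 and 15.8 CPM without (log2 fold change -2.57 ± 0.18, adjusted p = 3.1e-10). Gbp2 had 6.22, 5.26 and 4.58 CPM with dexamethasone, against 23.5, 30.5 and 23.6 CPM without (log2 fold change -2.27 ± 0.17, adjusted p = 1.4e-09). Irgm1, a regulator of the other GTPases, had 38.0, 38.0 and 35.8 CPM with dexamethasone, against 64.2, 77.8 and 60.5 CPM without (log2 fold change -0.86 ± 0.08, adjusted p = 1e-10). All 4 were lower in every treated library than in every untreated one, Irgm1 by the least. Among genes called at 2-fold or more the motif stood in 5.22% of the 460 higher and 7.22% of the 970 lower genes with a window.

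The machinery that makes and receives interferon split. Of 21 tested, 7 rose and 8 fell (median -0.08); the rises became 4 without untreated replicate 3, dexamethasone replicate 1 or dexamethasone replicate 3. Ifnar1, a chain of the type I interferon receptor, had 100.0, 98.1 and 95.3 CPM in dexamethasone-treated cells, against 172, 167 and 167 CPM in untreated cells (log2 fold change -0.79 ± 0.05, adjusted p = 1.1e-15). Ifngr1, a chain of the interferon gamma receptor, had 423, 377 and 396 CPM with dexamethasone, against 238, 234 and 233 CPM without (log2 fold change 0.76 ± 0.05, adjusted p = 6.6e-15). Cgas, the sensor of cytosolic DNA, had 7.88, 7.54 and 7.43 CPM with dexamethasone, against 13.99, 14.98 and 14.6 CPM without (log2 fold change -0.93 ± 0.10, adjusted p = 1.6e-10). The 2 receptor chains thus moved in opposite directions with no overlap. Irf8, a transcription factor of the macrophage lineage, was not called, with 254, 244 and 236 CPM with dexamethasone, against 259.9, 265 and 250.5 CPM without (-0.08 ± 0.05).

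MHC class II was among the gene groups lowered the most. Of 13 tested genes 9 fell and none rose, and their median log2 fold change was -2.12. Ciita, the transactivator of these genes, had 7.30, 9.46 and 11.4 CPM in dexamethasone-treated cells, against 93.7, 119.8 and 88.3 CPM in untreated cells (log2 fold change -3.42 ± 0.14, adjusted p = 1.8e-19). H2-Eb1, a beta chain, had 22.2, 20.8 and 26.7 CPM with dexamethasone, against 439.9, 536 and 464 CPM without (log2 fold change -4.37 ± 0.17, adjusted p = 2e-13). H2-Ab1, another beta chain, had 40.4, 34.7 and 45.2 CPM with dexamethasone, against 638, 753 and 640.4 CPM without (log2 fold change -4.08 ± 0.19, adjusted p = 3.8e-12). In all 3 genes every treated library lay far below every untreated one. The protease Ctss, which trims the invariant chain, was not called, with 4932, 4752 and 4548 CPM with dexamethasone, against 4292, 4433 and 4300 CPM without (0.13 ± 0.06), nor was Rfxap, a subunit of the promoter-binding complex (-0.03 ± 0.10). Beside these falls, dendritic cell markers summed to 13.1 to 15.2 CPM with dexamethasone and 18.6 to 24.7 CPM without. Of 11 such markers 2 rose and 5 fell, with a median log2 fold change of -1.05. Flt3, the receptor for a dendritic growth factor, was higher with dexamethasone and made up most of the treated sum. It had 8.87, 8.92 and 9.40 CPM with dexamethasone, against 0.0453, 0.117 and 0.224 CPM without (log2 fold change 6.08 ± 0.34). Batf3, a dendritic transcription factor, was lower (-3.32 ± 0.28).

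MHC class I genes fell in 16 of 20, none rose, and the falls were smaller (median -0.41). Tap1, the peptide transporter, had 38.7, 37.8 and 31.6 CPM in dexamethasone-treated cells, against 68.5, 66.7 and 60.2 CPM in untreated cells (log2 fold change -0.85 ± 0.07, adjusted p = 5.8e-12). Psmb9, an immunoproteasome subunit, had 29.8, 24.1 and 29.8 CPM with dexamethasone, against 46.6, 50.1 and 48.1 CPM without (log2 fold change -0.79 ± 0.08, adjusted p = 6.4e-10). Neither showed overlap. Of 13 co-stimulatory and checkpoint molecules 4 rose and 5 fell (median 0.12). Cd83, a maturation marker, had 23.2, 25.2 and 22.2 CPM with dexamethasone, against 148, 144 and 141 CPM without (log2 fold change -2.62 ± 0.10, adjusted p = 7.6e-18), and Cd40, the receptor for the T cell helper signal, had 3.15, 2.37 and 2.31 CPM with dexamethasone, against 10.3, 10.99 and 9.40 CPM without (log2 fold change -1.97 ± 0.14, adjusted p = 1.3e-13). Higher were the inhibitory receptor Havcr2, known as TIM-3 (0.66 ± 0.10, adjusted p = 1.4e-06), and the checkpoint ligand Vsir, known as VISTA (0.60 ± 0.06, adjusted p = 2.4e-11).

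**Figure D3:**
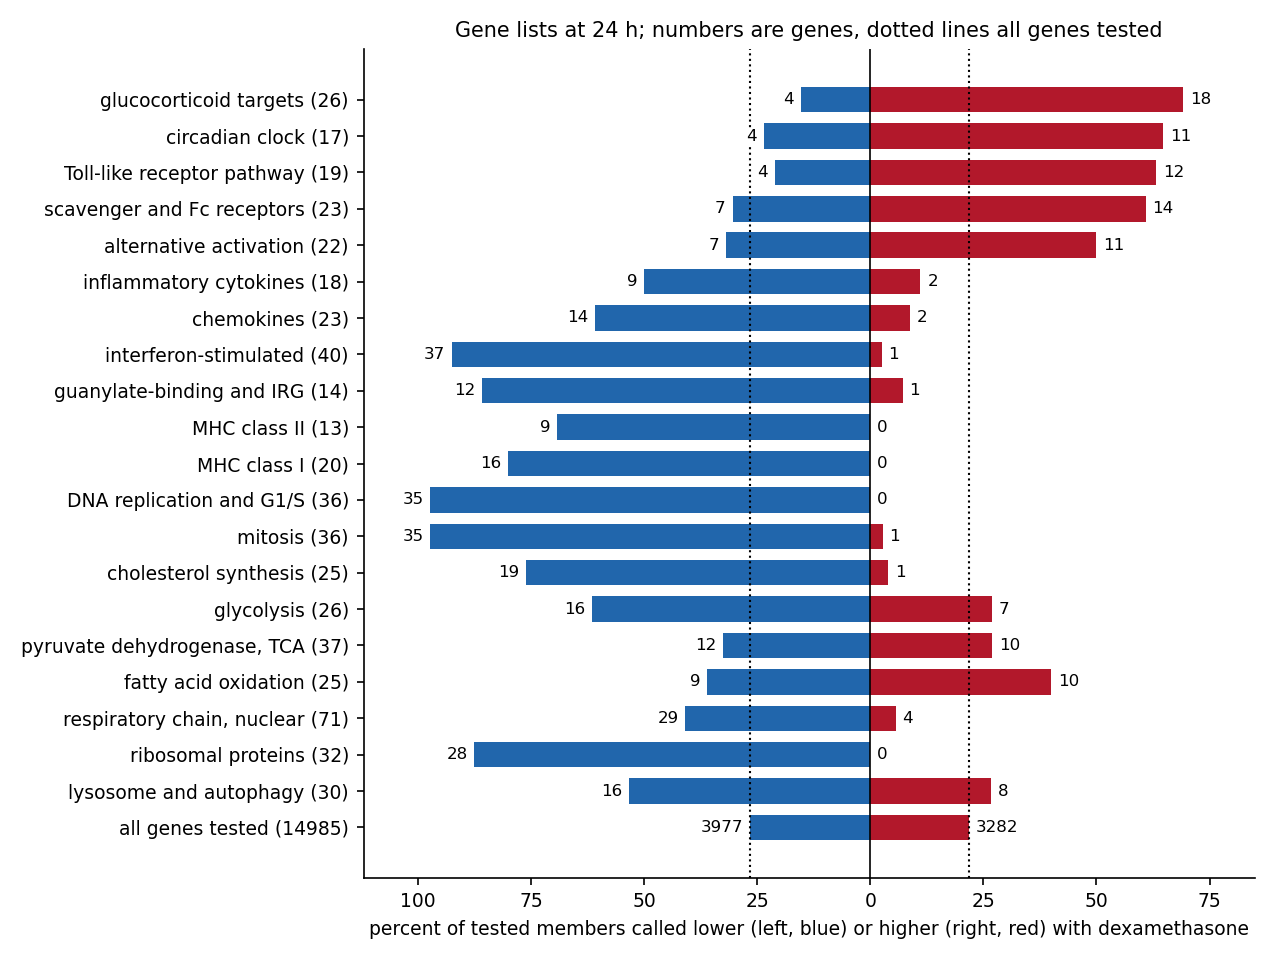
For each of 20 gene lists, and for all genes tested in the bottom row, the bars give the percentage of tested members lower with dexamethasone at 24 h to the left in blue and the percentage higher to the right in red, and the dotted lines give the shares of all tested genes, 26.5% lower and 21.9% higher. Replication, mitosis and interferon-stimulated genes reach furthest to the left, with 35 of 36, 35 of 36 and 37 of 40 members lower.

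Markers of alternative activation rose in 11 and fell in 7 of 22 (median 0.59). Beside Chil3 and F13a1, Klf4, a transcription factor of monocytes, had 74.2, 70.4 and 66.1 CPM in dexamethasone-treated cells, against 11.4, 8.92 and 13.7 CPM in untreated cells (log2 fold change 2.64 ± 0.12, adjusted p = 2.8e-16). Pparg, a nuclear receptor for fatty acids, had 22.7, 24.9 and 23.9 CPM with dexamethasone, against 101, 87.9 and 105 CPM without (log2 fold change -2.04 ± 0.09, adjusted p = 1.4e-20). Folr2, a folate receptor, had 6.76, 6.29 and 6.38 CPM with dexamethasone, against 56.0, 53.9 and 54.0 CPM without (log2 fold change -3.08 ± 0.10, adjusted p = 3.4e-24). Klf4 was higher and the other 2 lower in every treated library. Mgl2, a lectin, was not called (-0.40 ± 0.23).

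Receptors and bridging proteins for apoptotic cells rose in 9 and fell in 12 of 26 (median -0.07). Mertk, the receptor kinase for dying cells, had 421, 427 and 429 CPM in dexamethasone-treated cells, against 67.7, 86.6 and 71.1 CPM in untreated cells (log2 fold change 2.50 ± 0.10, adjusted p = 1.2e-16). Axl, a kinase of the same family, had 36.3, 36.4 and 35.1 CPM with dexamethasone, against 201, 230.4 and 199 CPM without (log2 fold change -2.55 ± 0.08, adjusted p = 1.5e-21). Their shared ligand Gas6 had 506, 489 and 494 CPM with dexamethasone, against 464, 557 and 475 CPM without (-0.01 ± 0.09, not called). The 2 kinases of 1 family moved apart: Mertk was higher and Axl lower with no overlap, and Gas6 overlapped. Thbs1, thrombospondin 1, had 67.5, 68.1 and 63.2 CPM with dexamethasone, against 27.1, 30.7 and 29.2 CPM without (log2 fold change 1.19 ± 0.17, adjusted p = 1.6e-05). Cd36, a receptor for lipids and dead cells, had 231, 243 and 223 CPM with dexamethasone, against 1121, 851 and 1087 CPM without (log2 fold change -2.13 ± 0.14, adjusted p = 3.9e-10).

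Fc and scavenger receptors rose in 14 and fell in 7 of 23 (median 0.62). Cd163, the haemoglobin scavenger receptor, had 114, 110.3 and 128 CPM in dexamethasone-treated cells, against 36.3, 36.0 and 38.1 CPM in untreated cells (log2 fold change 1.68 ± 0.08, adjusted p = 1.1e-18). Fcgrt, which recycles antibody, had 339, 292 and 316 CPM with dexamethasone, against 100.2, 113 and 101 CPM without (log2 fold change 1.59 ± 0.09, adjusted p = 5.6e-15). Fcgr1, the high-affinity antibody receptor, had 73.6, 69.1 and 71.2 CPM with dexamethasone, against 224, 238 and 212 CPM without (log2 fold change -1.66 ± 0.07, adjusted p = 9.9e-19). Clec7a, the fungal glucan receptor, had 117, 128 and 123 CPM with dexamethasone, against 442, 426 and 458 CPM without (log2 fold change -1.85 ± 0.10, adjusted p = 2.4e-13). The first pair was higher and the second lower in every treated library. Cd68, a lysosomal scavenger receptor and macrophage marker, fell (-0.85 ± 0.05, adjusted p = 1.1e-16).

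Of 20 complement genes 8 rose and 3 fell (median 0.22). Cfp, properdin, which stabilises the convertase of the alternative pathway, had 225, 193 and 204 CPM in dexamethasone-treated cells, against 299.5, 325 and 299.7 CPM in untreated cells (log2 fold change -0.57 ± 0.07, adjusted p = 2.6e-07). Cd55, a membrane inhibitor of complement, was low, with 3.81, 2.77 and 2.35 CPM with dexamethasone, against 0.181, 0.469 and 0.0896 CPM without (log2 fold change 3.51 ± 0.42, adjusted p = 7.9e-08), and 4.40 without untreated replicate 2. Itgax, CD11c, a complement receptor chain, had 8.83, 12.2 and 13.2 CPM with dexamethasone, against 169.5, 119 and 159 CPM without (log2 fold change -3.71 ± 0.22, adjusted p = 1.2e-10), while Itgam, CD11b, was not called (-0.05 ± 0.06).

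Iron and haem genes rose in 9 and fell in 9 of 22 (median 0.21). Hp and Cd163, which bind and take up haemoglobin, both rose, as given above. Mt2, a metallothionein, was low, with 1.04, 1.74 and 0.965 CPM with dexamethasone, against 0.226, 0.196 and 0.403 CPM without (log2 fold change 2.17 ± 0.47, adjusted p = 0.00031). Steap3, a ferric reductase, had 35.0, 32.9 and 32.6 CPM with dexamethasone, against 85.4, 75.8 and 82.9 CPM without (log2 fold change -1.28 ± 0.08, adjusted p = 2.1e-16). The iron exporter Slc40a1, ferroportin, was not called, with 129, 137 and 140.2 CPM with dexamethasone, against 126, 136 and 131 CPM without (0.05 ± 0.10).

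Matrix proteases moved both ways, 6 of 26 higher and 13 lower (median -0.27). Mmp12, the macrophage elastase, had 36.1, 47.2 and 59.0 CPM in dexamethasone-treated cells, against 897, 642 and 913 CPM in untreated cells (log2 fold change -4.11 ± 0.31, adjusted p = 3.5e-09). Mmp9, a gelatinase, had 0.124, 0.223 and 0.462 CPM with dexamethasone, against 5.89, 2.50 and 4.92 CPM without (log2 fold change -4.00 ± 0.46, adjusted p = 2.3e-08), and -4.63 without dexamethasone replicate 3. Mmp27 had 35.1, 37.8 and 33.7 CPM with dexamethasone, against 9.69, 9.04 and 8.42 CPM without (log2 fold change 1.97 ± 0.13, adjusted p = 4.8e-15), and Mmp19 79.4, 79.2 and 75.01 CPM with dexamethasone, against 25.4, 21.2 and 25.6 CPM without (log2 fold change 1.70 ± 0.12, adjusted p = 6.1e-11). So 3 members of the family (Mmp8, Mmp19, Mmp27) were higher and 2 (Mmp9, Mmp12) lower among those named.

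Annexins and genes of prostaglandin and leukotriene synthesis rose in 8 and fell in 10 of 23 (median -0.13). Pla2g7, which inactivates platelet-activating factor, had 804, 659 and 665 CPM in dexamethasone-treated cells, against 61.3, 94.9 and 67.8 CPM in untreated cells (log2 fold change 3.25 ± 0.17, adjusted p = 1.7e-11). Ptger2, a prostaglandin E2 receptor, had 31.8, 31.8 and 32.0 CPM with dexamethasone, against 4.84, 4.22 and 4.84 CPM without (log2 fold change 2.78 ± 0.12, adjusted p = 5.4e-21). Anxa2, annexin A2, had 214, 209 and 204 CPM with dexamethasone, against 618, 502 and 588 CPM without (log2 fold change -1.44 ± 0.06, adjusted p = 1.2e-20). The first 2 were higher and Anxa2 lower, with no overlap.

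Among 43 transcription factors 13 rose and 22 fell (median -0.28). Myc, which drives growth, had 2.36, 2.19 and 1.76 CPM in dexamethasone-treated cells, against 23.8, 18.4 and 26.1 CPM in untreated cells (log2 fold change -3.43 ± 0.19, adjusted p = 4.6e-14). Klf13 had 329, 324 and 332 CPM with dexamethasone, against 119.8, 128 and 120.0 CPM without (log2 fold change 1.42 ± 0.05, adjusted p = 1.2e-22). Atf3, a stress-induced repressor, had 94.4, 95.1 and 97.8 CPM with dexamethasone, against 492, 414 and 487 CPM without (log2 fold change -2.28 ± 0.07, adjusted p = 1.2e-22). Fos, a subunit of AP-1, had 31.5, 28.5 and 27.2 CPM with dexamethasone, against 98.4, 68.8 and 89.0 CPM without (log2 fold change -1.55 ± 0.11, adjusted p = 5.1e-11). Its partner Jun had 137, 133 and 119 CPM with dexamethasone, against 132, 131 and 119 CPM without (0.03 ± 0.07, not called), so of the AP-1 pair only Fos passed the test. Of 13 immediate early and heat shock genes 6 fell and 1, Dusp1, rose (median -0.31).

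Clock genes, among them direct glucocorticoid targets, rose in 11 and fell in 4 of 17 (median 0.65). Per1, a repressor of the clock, had 185, 190.3 and 207 CPM in dexamethasone-treated cells, against 33.9, 34.2 and 33.5 CPM in untreated cells (log2 fold change 2.52 ± 0.07, adjusted p = 3.6e-27). Per2 had 9.99, 8.12 and 9.86 CPM with dexamethasone, against 2.17, 2.31 and 3.22 CPM without (log2 fold change 1.86 ± 0.19, adjusted p = 3e-10). Cry1, their partner, had 33.2, 28.5 and 30.1 CPM with dexamethasone, against 7.47, 8.25 and 10.5 CPM without (log2 fold change 1.81 ± 0.12, adjusted p = 1.9e-14). These repressors were all higher in treated cells with no overlap. Bhlhe40, another repressor of the clock, had 6.22, 9.01 and 7.14 CPM with dexamethasone, against 48.4, 35.0 and 38.7 CPM without (log2 fold change -2.45 ± 0.15, adjusted p = 2.4e-14), and Npas2, an activator, had 0.705, 1.29 and 1.34 CPM with dexamethasone, against 6.204, 3.99 and 5.19 CPM without (log2 fold change -2.20 ± 0.45, adjusted p = 0.00018). Per3 and Dbp, the output factor, were not called, at -0.10 ± 0.16 and -0.01 ± 0.18. Each group has 1 sampling time, so no phase was measured.

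Genes of cell division fell almost without exception. Of 36 genes of DNA replication and entry into S phase 35 fell and none rose (median -1.70), and of 36 genes of mitosis 35 fell and 1 rose (median -2.36). The replication genes summed to 491, 505 and 505 CPM in dexamethasone-treated libraries, against 1618, 1400 and 1552 CPM in untreated libraries, and the mitosis genes to 276, 299.9 and 272 CPM in dexamethasone-treated libraries, against 1201, 1107 and 1122 CPM in untreated libraries. The groups did not overlap in either sum.

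Uhrf1, which copies DNA methylation to the new strand, had 2.32, 2.27 and 2.18 CPM in dexamethasone-treated cells, against 50.04, 42.6 and 50.5 CPM in untreated cells (log2 fold change -4.39 ± 0.12, adjusted p = 4e-26). Rrm2, a subunit of the enzyme that makes deoxynucleotides, had 3.61, 5.00 and 4.20 CPM with dexamethasone, against 51.0, 39.1 and 47.5 CPM without (log2 fold change -3.43 ± 0.19, adjusted p = 7.2e-12). Nusap1, a spindle protein, had 1.74, 3.93 and 2.02 CPM with dexamethasone, against 25.6, 21.5 and 23.7 CPM without (log2 fold change -3.21 ± 0.24, adjusted p = 1.2e-09). Ttk, a kinase of the spindle checkpoint, had 0.622, 1.16 and 0.756 CPM with dexamethasone, against 6.52, 6.53 and 7.48 CPM without (log2 fold change -3.02 ± 0.24, adjusted p = 6e-13). Every treated library lay below every untreated one in these 4. The exceptions were E2f2, an E2F factor, which was not called, with 19.9, 21.8 and 21.4 CPM with dexamethasone, against 20.9, 23.6 and 21.4 CPM without (-0.06 ± 0.10), and Pttg1, securin, which rose, with 21.6, 19.7 and 18.9 CPM with dexamethasone, against 12.3, 16.3 and 12.8 CPM without (log2 fold change 0.54 ± 0.10, adjusted p = 4.8e-05).

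Of 25 G1 cyclins, kinases and inhibitors 5 rose and 17 fell (median -0.57). The D-type cyclins, which start the cycle, went apart. Ccnd1 had 3.56, 5.98 and 5.54 CPM in dexamethasone-treated cells, against 129.8, 111 and 122 CPM in untreated cells (log2 fold change -4.59 ± 0.16, adjusted p = 3.8e-15). Ccnd3 had 70.5, 64.8 and 68.0 CPM with dexamethasone, against 35.8, 37.5 and 33.6 CPM without (log2 fold change 0.93 ± 0.07, adjusted p = 6.6e-14). Ccnd2, given above, fell to below 1 CPM. Cdkn1b, the inhibitor p27, had 100.0, 100.3 and 108 CPM with dexamethasone, against 70.7, 69.8 and 72.1 CPM without (log2 fold change 0.54 ± 0.07, adjusted p = 1.6e-08).

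The promoters of these genes were searched for a pair of motifs. The E2F motif (TTTCCCGC or TTTGGCGC, either strand) stood in 11 of 29 replication genes with a window (37.9%), against 1.80% of all genes with a window and 3.44% of those tested. The NF-Y motif CCAAT stood in 24 of 31 mitosis genes (77.4%) and 20 of 29 replication genes (69.0%), against 41.1% of all. Mcm5 and Mcm6, subunits of the replicative helicase, are shown for the first, and Ccnb2, a mitotic cyclin, and Plk1, a mitotic kinase, for the second, with the motif in capitals. The stretches lie at chr8:75109335-75109392 on the plus strand, chr1:128359720-128359777 on the minus strand, chr9:70421555-70421600 on the minus strand and chr7:122159396-122159434 on the plus strand.
Mcm5: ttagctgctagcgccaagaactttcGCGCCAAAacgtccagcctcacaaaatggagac
Mcm6: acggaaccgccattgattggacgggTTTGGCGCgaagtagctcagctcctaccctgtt
Ccnb2: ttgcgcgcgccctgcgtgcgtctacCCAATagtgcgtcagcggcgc
Plk1: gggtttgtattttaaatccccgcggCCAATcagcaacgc
Mcm5 had 9.41, 8.34 and 6.97 CPM with dexamethasone, against 66.2, 57.5 and 68.3 CPM without (log2 fold change -2.95 ± 0.10, adjusted p = 2.8e-22). Mcm6 had 33.6, 35.4 and 37.8 CPM with dexamethasone, against 119, 96.5 and 109 CPM without (log2 fold change -1.60 ± 0.07, adjusted p = 4.1e-19). Ccnb2 had 5.31, 4.95 and 3.86 CPM with dexamethasone, against 25.99, 22.4 and 24.2 CPM without (log2 fold change -2.36 ± 0.13, adjusted p = 5.4e-16). Plk1 had 2.49, 3.30 and 2.81 CPM with dexamethasone, against 15.5, 14.6 and 14.1 CPM without (log2 fold change -2.36 ± 0.14, adjusted p = 8.4e-17). In all 4 the highest treated library lay below the lowest untreated one. CCAAT also stood in the promoters of 17 of 18 cholesterol genes (94.4%) and 13 of 15 clock genes (86.7%).

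Of 25 genes of cholesterol synthesis and uptake 19 fell and 1 rose (median -1.06), with sums of 471, 489.8 and 478 CPM in dexamethasone-treated libraries, against 1116, 806 and 1069 CPM in untreated libraries. Untreated replicate 2 was the lowest untreated library, still above all treated ones. Idi1, isopentenyl diphosphate isomerase, had 4.89, 4.60 and 3.19 CPM in dexamethasone-treated cells, against 19.2, 10.3 and 18.5 CPM in untreated cells (log2 fold change -1.91 ± 0.24, adjusted p = 2.4e-06). The rise was Pmvk, phosphomevalonate kinase, with 28.6, 28.1 and 28.7 CPM with dexamethasone, against 15.9, 14.4 and 16.3 CPM without (log2 fold change 0.87 ± 0.10, adjusted p = 2.3e-09).

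Sterol export and fatty acid synthesis genes rose in 7 and fell in 13 of 25 (median -0.28). Fads2, a fatty acid desaturase, had 0.912, 1.29 and 1.68 CPM in dexamethasone-treated cells, against 30.1, 12.8 and 24.7 CPM in untreated cells (log2 fold change -4.11 ± 0.45, adjusted p = 6e-07). Scd1, another desaturase, had 0.705, 0.848 and 1.26 CPM with dexamethasone, against 8.47, 3.95 and 6.00 CPM without (log2 fold change -2.69 ± 0.37, adjusted p = 4.4e-06). Elovl5, a fatty acid elongase, had 139.5, 140.3 and 131 CPM with dexamethasone, against 84.9, 79.7 and 86.5 CPM without (log2 fold change 0.71 ± 0.07, adjusted p = 1.4e-11). The 2 desaturases were lower and the elongase higher, with no overlap. Apoc1 rose at a low level (2.74, 1.61 and 2.18 CPM with dexamethasone, against 0.0906, 0.469 and 0.224 CPM without, log2 fold change 2.99 ± 0.47, 3.74 without untreated replicate 2). Fatty acid oxidation genes rose in 10 and fell in 9 of 25 (median -0.02). Ppargc1b, a coactivator of mitochondrial genes, had 6.43, 6.69 and 6.21 CPM with dexamethasone, against 2.08, 1.56 and 2.06 CPM without (log2 fold change 1.76 ± 0.20, adjusted p = 2e-09), Fabp5, a fatty acid carrier, 270.1, 306 and 296 CPM with dexamethasone, against 545, 506 and 534 CPM without (log2 fold change -0.86 ± 0.08, adjusted p = 1.5e-09), and Cpt1a, the carnitine transferase that admits fatty acids to mitochondria, was not called (-0.02 ± 0.06).

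Glucose uptake and glycolysis moved mostly down, with 16 of 26 genes lower and 7 higher (median -0.40), and summed to 4015, 3669 and 3786 CPM in dexamethasone-treated libraries, against 5273, 4786 and 5015 CPM in untreated libraries. Aldoc, aldolase C, had 2.03, 2.54 and 1.97 CPM in dexamethasone-treated cells, against 15.2, 14.4 and 14.1 CPM in untreated cells (log2 fold change -2.74 ± 0.13, adjusted p = 1.8e-19). Gapdh, often used as a reference gene, had 350.1, 307 and 305 CPM with dexamethasone, against 665, 576 and 611 CPM without (log2 fold change -0.94 ± 0.05, adjusted p = 2.4e-17). Hk3, a hexokinase of myeloid cells, had 113, 124 and 133 CPM with dexamethasone, against 321, 272 and 316 CPM without (log2 fold change -1.29 ± 0.07, adjusted p = 1.8e-18). Against these falls, Pfkfb3, which makes the activator of phosphofructokinase, had 129, 125 and 135 CPM with dexamethasone, against 39.1, 46.0 and 38.4 CPM without (log2 fold change 1.65 ± 0.07, adjusted p = 1.6e-19), and Hk2, another hexokinase, had 51.4, 52.1 and 55.1 CPM with dexamethasone, against 32.8, 35.7 and 27.7 CPM without (log2 fold change 0.72 ± 0.08, adjusted p = 8.6e-10). So the hexokinases split, Hk2 higher, Hk3 lower, and Hk1 not called (0.08 ± 0.06).

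Of 37 genes of pyruvate oxidation and the citrate cycle 10 rose and 12 fell (median close to 0), near the 21.9% higher and 26.5% lower of all genes, with 2 of the falls at least 2-fold. Idh1, cytosolic isocitrate dehydrogenase, had 455, 442 and 419.9 CPM in dexamethasone-treated cells, against 279.5, 282 and 272 CPM in untreated cells (log2 fold change 0.66 ± 0.07, adjusted p = 5.4e-09). Pdk1, a kinase that shuts pyruvate dehydrogenase, had 52.0, 54.2 and 53.4 CPM with dexamethasone, against 87.8, 73.1 and 88.1 CPM without (log2 fold change -0.64 ± 0.08, adjusted p = 1e-08). Acod1, which makes itaconate, had 0.290, 0.0892 and 0.126 CPM with dexamethasone, against 1.99, 1.09 and 0.895 CPM without (log2 fold change -2.90 ± 0.86, adjusted p = 0.0095), and -3.54 without dexamethasone replicate 1. Sdha, a succinate dehydrogenase subunit, was not called (0.04 ± 0.05). Of 71 nuclear-encoded respiratory chain genes 4 rose and 29 fell (median -0.12). The 29 falls became 17 without dexamethasone replicate 2, and the 4 rises between 0 and 2 without dexamethasone replicate 1 or any 1 untreated library. Of 13 mitochondrially encoded genes 3 rose and none fell (median 0.22); the rises became 0 without dexamethasone replicate 2 and 7 without untreated replicate 3.

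Nrf2-linked antioxidant genes rose in 12 and fell in 7 of 25 (median 0.16). Gpx3, the secreted glutathione peroxidase, had 490.3, 489 and 447 CPM in dexamethasone-treated cells, against 60.8, 76.4 and 64.4 CPM in untreated cells (log2 fold change 2.82 ± 0.09, adjusted p = 4.4e-20). Gsr, glutathione reductase, had 148, 138 and 135 CPM with dexamethasone, against 42.2, 46.0 and 40.5 CPM without (log2 fold change 1.71 ± 0.07, adjusted p = 8e-20). Prdx1, peroxiredoxin 1, had 744, 653 and 613 CPM with dexamethasone, against 1188, 1062 and 1176 CPM without (log2 fold change -0.77 ± 0.08, adjusted p = 5.2e-09). The first 2 were higher and Prdx1 lower with no overlap. Of 19 hypoxia response genes 4 rose and 8 fell (median 0.06), among them Vegfa, the vascular growth factor, with 34.5, 38.3 and 33.9 CPM with dexamethasone, against 103, 90.4 and 104 CPM without (log2 fold change -1.48 ± 0.10, adjusted p = 2e-13). Hif1a itself was not called (-0.10 ± 0.06).

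Of 29 Atf4 targets and genes of amino acid metabolism and mTOR control 7 rose and 13 fell (median -0.27). Psat1, an enzyme of serine synthesis, had 3.56, 4.33 and 3.78 CPM in dexamethasone-treated cells, against 37.5, 25.1 and 35.7 CPM in untreated cells (log2 fold change -3.07 ± 0.13, adjusted p = 8.7e-18). Mthfd2, a mitochondrial folate enzyme, had 4.23, 4.60 and 3.06 CPM with dexamethasone, against 26.7, 19.3 and 24.0 CPM without (log2 fold change -2.55 ± 0.14, adjusted p = 6.9e-14). Deptor, an mTOR inhibitor, had 153, 166 and 154 CPM with dexamethasone, against 31.6, 31.1 and 26.96 CPM without (log2 fold change 2.40 ± 0.07, adjusted p = 1.9e-26). With Ddit4, 2 inhibitors of mTOR were thus higher. Of 30 lysosome and autophagy genes 8 rose and 16 fell (median -0.16). Lipa, the lysosomal acid lipase, had 749, 741 and 735 CPM with dexamethasone, against 1958, 2001 and 1908 CPM without (log2 fold change -1.40 ± 0.08, adjusted p = 3.4e-15), and Ulk1, the kinase that starts autophagy, 89.7, 89.2 and 90.2 CPM with dexamethasone, against 53.5, 59.8 and 52.5 CPM without (log2 fold change 0.70 ± 0.07, adjusted p = 5.5e-11). Ribosomal protein genes fell in 28 of 32 by small amounts (median -0.27), with Rpl10a at 276, 249.6 and 241 CPM with dexamethasone, against 395, 363 and 392 CPM without (log2 fold change -0.59 ± 0.05, adjusted p = 1.2e-11).

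The rises among matrix proteases (6 of 26), G1 cyclins and inhibitors (5 of 25), hypoxia response genes (4 of 19), Atf4 targets (7 of 29), glycolysis genes (7 of 26) and lysosome genes (8 of 30) were near the 21.9% of all genes. So were those among receptor and chaperone genes (4 of 16), NF-kB genes (5 of 18) and sterol export and fatty acid synthesis genes (7 of 25). The same holds for mitochondrially encoded genes (3 of 13) and osteoclast markers (2 of 8). The falls among Nrf2-linked genes (7 of 25), scavenger and Fc receptors (7 of 23), alternative activation markers (7 of 22) and clock genes (4 of 17) were near the 26.5% of all genes.

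The effect at 24 h without LPS was then set beside the effect at 4 h. Of the 3282 genes higher at 24 h, 1548 (47.2%, and 58.5% of the 2644 higher at 4 h) were also higher at 4 h and 236 (7.19%) were lower. Of the 3977 lower at 24 h, 2105 (52.9%, and 59.2% of the 3557 lower at 4 h) were also lower at 4 h and 306 (7.69%) were higher. Among all 14985 tested genes, 2644 were higher and 3557 lower at 4 h. The shared calls were above these shares of all genes, and the opposite calls below them. By the interaction term, the effect was higher at 24 h than at 4 h in 2074 genes (13.8% of those tested) and lower in 2520 (16.8%). These differences cannot be told apart from the sex of the cells, which differs between the times.

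The gap between the medians at 24 h and 4 h was wide in MHC class II and mitosis genes. MHC class II had a median log2 fold change of -2.12 at 24 h and -0.10 at 4 h, and 10 of 13 genes had a lower effect at 24 h. Mitosis genes had -2.36 and 0.01, with 35 of 36 lower at 24 h. Their sum at 4 h was 2219, 2248 and 2249 CPM with dexamethasone at 4 h, against 2103, 2557 and 2223 CPM in untreated cells, and there the groups overlapped. Interferon-stimulated genes had medians of -1.65 at 24 h and -0.56 at 4 h, and glucocorticoid targets 1.75 and 2.38.

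Of single genes, H2-Aa, an MHC class II alpha chain, had 152, 141 and 112 CPM with dexamethasone, against 157, 119 and 158 CPM without at 4 h (log2 fold change -0.10 ± 0.16), where the groups overlapped, and a difference between the 24 h and 4 h effects of -4.11 ± 0.23 (adjusted p = 2.6e-10). Chil3 had effects of 6.67 ± 0.24 at 24 h and 1.23 ± 0.17 at 4 h, a difference of 5.44 ± 0.32 (adjusted p = 1.3e-10). Hp differed by 4.39 ± 0.55 (adjusted p = 2.5e-06), with an effect at 4 h of 5.16 ± 0.20. Gprc5b, an orphan receptor, rose at 4 h (4.33 ± 0.14) and was not called at 24 h (0.28 ± 0.12), a difference of -4.05 ± 0.18 (adjusted p = 9.4e-19), although its 3 treated libraries at 24 h all lay above the untreated ones. Epha2, an ephrin receptor, had 4.93 ± 0.23 at 4 h and 0.85 ± 0.74 at 24 h, where it was not called, a difference of -4.08 ± 0.99 (adjusted p = 0.0014).

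Under LPS the 24 h effect was often different. Of the genes higher with dexamethasone alone, 1232 (37.5%, and 39.1% of the 3154 higher under LPS) were also higher with dexamethasone and LPS against LPS, and 495 (15.1%) were lower. Of those lower, 1606 (40.4%, and 47.4% of the 3391 lower under LPS) were also lower and 767 (19.3%) were higher. Among all 14985 tested genes, 3154 were higher and 3391 lower under LPS. The shared calls were above these shares of all genes. The 495 opposite calls were below the share of genes lower, and the 767 near the share of genes higher. By the interaction term, the effect without LPS was higher than the effect with it in 2659 genes (17.7%) and lower in 3065 (20.5%). Both pairs are of 24 h and share no library.

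Cell division genes moved in opposite directions in the 2 settings. The mitosis sum was 638, 578 and 536 CPM with dexamethasone and LPS, against 282, 292 and 315 CPM with LPS, and 35 of 36 mitosis and 36 of 36 replication genes had a lower effect without LPS than with it. The medians of mitosis genes were -2.36 without and 1.65 with LPS. Plk1 had 8.17, 6.26 and 6.39 CPM with dexamethasone and LPS, against 0.688, 0.833 and 1.54 CPM with LPS (log2 fold change 2.77 ± 0.20), a difference of effects of -5.13 ± 0.24 (adjusted p = 3.9e-19). It was thus lower with dexamethasone alone and higher with dexamethasone under LPS, with no overlap in either pair.

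Anxa1 fell with dexamethasone alone (-1.94 ± 0.07) and rose with it under LPS (0.70 ± 0.07), a difference of -2.64 ± 0.10 (adjusted p = 7.9e-21). Il10 likewise fell alone (-1.48 ± 0.22) and rose under LPS (1.18 ± 0.35), a difference of -2.66 ± 0.42 (adjusted p = 1.1e-05). Vcan rose alone (5.09 ± 0.23) and fell under LPS (-1.43 ± 0.12), a difference of 6.52 ± 0.26 (adjusted p = 5.2e-14). Fn1, fibronectin, was not called alone, with 2.98, 2.23 and 3.69 CPM with dexamethasone, against 3.40, 3.09 and 4.84 CPM without (-0.34 ± 0.27), and rose under LPS (6.50 ± 0.41), a difference of -6.84 ± 0.52 (adjusted p = 5.8e-13). Saa3 rose in both settings, by 8.48 ± 0.27 alone and by 0.34 ± 0.13 under LPS, where it had 76700, 73150 and 72300 CPM with dexamethasone and LPS, against 59080, 60830 and 55260 CPM with LPS. The difference of its effects was 8.13 ± 0.33 (adjusted p = 4.4e-13), and 9.09 without untreated replicate 1.

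**Figure D4:**
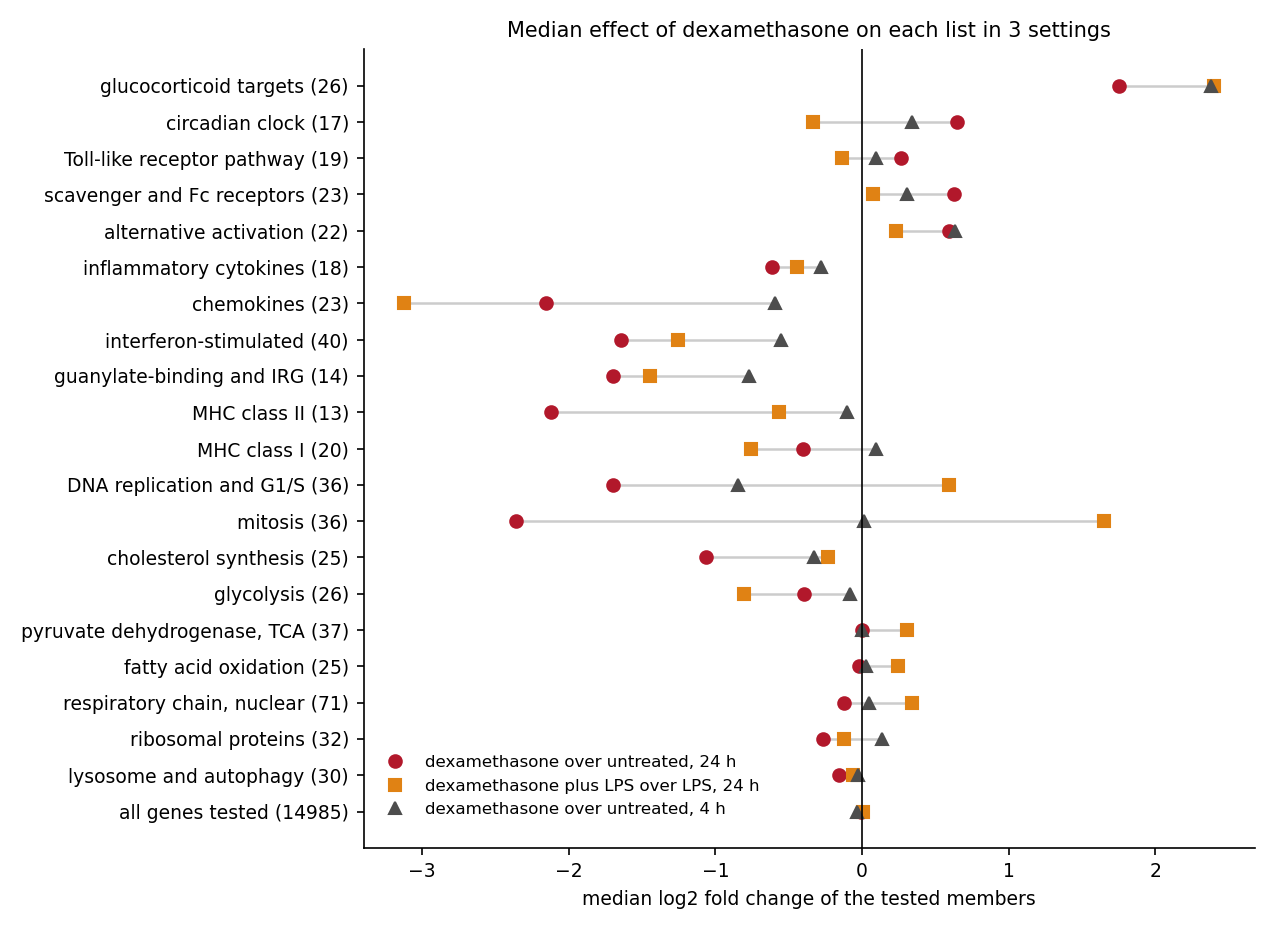
For each gene list the points give the median log2 fold change with dexamethasone in 3 comparisons: 24 h without LPS, 24 h with LPS and 4 h without LPS. Mitosis genes lie at -2.36, 1.65 and 0.01 in these comparisons, and glucocorticoid targets at 1.75, 2.40 and 2.38.

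**Figure D5:**
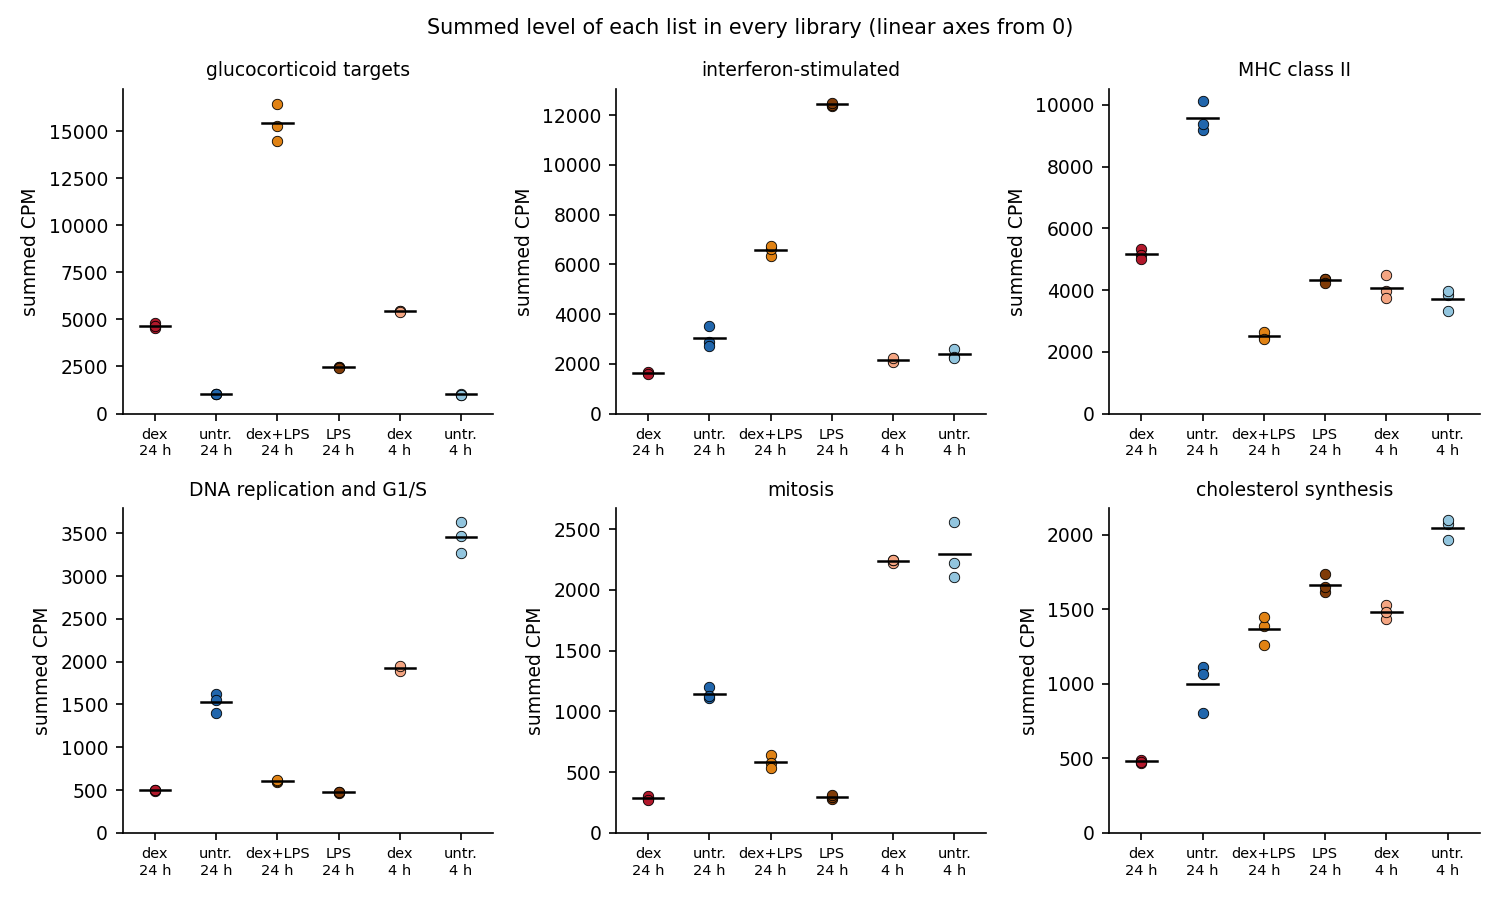
The panels give the summed level in CPM of 6 gene lists in each library, with each dexamethasone group left of the group without it, at 24 h without LPS, at 24 h with LPS and at 4 h without LPS. The glucocorticoid targets are higher with dexamethasone in all 3 pairs, and the mitosis genes are lower at 24 h without LPS and higher at 24 h with LPS.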

How the data were processed

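The deposited table holds raw counts of read pairs per gene for 24 libraries; per the file headers, featureCounts 2.0.0 assigned pairs to GENCODE M29 exons without regard to strand, and reads with several places in the genome or overlapping several genes were not counted. The submitters' processing notes name STAR and the builds GRCm38 and mm10, whereas M29 is an annotation of a later build, so the build behind the table's coordinates is uncertain. Symbols came from a GENCODE M21 name table by gene identifier, which named 52081 of 55357 genes and left 3276 unnamed. The gene lengths deposited with the table were not used.

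The 24 libraries were fitted together by group with edgeR 4.0.16 in R 4.3.3 (TMM scaling, filterByExpr, quasi-likelihood F test, 16 residual degrees of freedom), and p-values were adjusted by Benjamini-Hochberg over 14985 genes. A further 14601 genes with counts were below the filter. Genes were called at an adjusted p below 0.05. Values after ± are standard errors, computed as the log2 fold change divided by the square root of F. CPM were computed from the counts with library sizes multiplied by their TMM factors. The same fit gave the difference between the effects at 24 h and 4 h and between the effects without and with LPS. Total counts ran from 18326206 to 27908164 over the 24 libraries, and intervals from counts cover counting error only. Replicate numbers were not treated as pairs. The correlations of same-numbered deviations were small, at 0.039, 0.012 and 0.024, against -0.045 to 0.022 for differently numbered ones. Such values cannot exclude a weak pairing.

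The genes named are a panel of 25, the 12 largest rises and 12 largest falls, and the 6 largest gains and losses in CPM. Added to them are up to 3 rises, 3 falls and 2 uncalled genes of each list, and the 5 largest interactions each way. The largest rises, falls, gains and losses were taken from called genes with a mean of at least 5 CPM. Their groups must not overlap, and their symbol must not be provisional. Genes outside this rule are those chosen for a promoter motif and genes at or near 0 in marker lists. Some genes that this rule names are not reported here. The members and lists were chosen with earlier results of these data known. Promoter windows were searched in RefSeq sequences with Python 3.11.15. The fit was tested on simulated data. DESeq2 1.42.0, other scalings and filters, a replicate block, a test against a 2-fold change and leaving out each library were tried as alternatives.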

Additional observations from a re-analysis of the deposited data

Results flagged for a closer look

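The effect of dexamethasone alone at 24 h differed from its effect at 4 h by edgeR's interaction test in 2074 genes in the higher and 2520 in the lower direction, and from its effect under LPS in 2659 and 3065 genes. All values below are differences of log2 fold changes with an adjusted p below 0.05. Those between 24 h and 4 h cannot be told apart from the sex of the cells.

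Of the secreted proteins raised most at 24 h, the effect was higher than at 4 h for Hp (4.39), Saa3 (6.12, and 7.09 without untreated replicate 1), Chil3 (5.44) and Lcn2 (4.83). It was also higher for Ppm1l, a protein phosphatase (2.93), and Apoe (1.14). The effect was lower at 24 h than at 4 h for the MHC class II genes H2-Eb1 (-4.25), H2-Aa (-4.11) and Cd74 (-3.64). It was lower too for Epha2 (-4.08), Gprc5b (-4.05) and Ankle1, an endonuclease (-4.01). The cell division genes Ccnb2 (-2.57) and Mcm5 (-2.00) differed in the same direction, as did Anxa1 (-1.41), Il10 (-1.57) and Lpl (-2.41).

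Against the effect under LPS, the effect alone was higher for Hp (6.56), Saa3 (8.13, and 9.09 without untreated replicate 1), Vcan (6.52), Ddit4 (4.28) and Ednrb, an endothelin receptor (8.00). For Ednrb most of the difference was a fall under LPS. Its rise alone was small, and its call was lost without untreated replicate 1 or 3 or dexamethasone replicate 1 or 3 (log2 fold change 0.35 to 0.44). It was lower for Fn1 (-6.84), Ccnb2 (-5.62), Ccnd1 (-4.30), Mcm5 (-4.19), Lpl (-3.42), Il10 (-2.66) and Anxa1 (-2.64).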

How the results depend on the processing

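Tested against a change of more than 2-fold with edgeR's glmTreat, 338 genes were higher and 874 lower, against 716 and 1375 past the fold itself. The other alternatives left these counts over all genes, and those of both interactions, within 1.5 times. Small counts within lists moved further: the 4 respiratory chain rises became 7 without scaling factors and 1 without a filter, the 1 chemoattractant receptor rise became 2 under DESeq2 or another scaling and 3 in a fit of the groups compared, and MHC class II rises went to 1 without scaling factors. Leaving out each library in turn gave 2756 to 2979 higher and 3597 to 3795 lower genes, and 633 to 696 and 1318 to 1381 at 2-fold or more. For the difference from 4 h these ranges were 1714 to 1992 and 2240 to 2476, and for the difference from LPS 2352 to 2559 and 2870 to 3007. Counts without scaling factors were 3736 higher and 3651 lower. With the replicate block they were 3239 and 3956. Of 366 named genes with values, 269 were called and 14 lost a call under some alternative. Among 4742 recomputed values, 44 lost a call and 46 gained one. None changed sign where the gene was called in the main fit or the alternative, and sign changes of uncalled genes were not counted. Several fitted folds of genes near 0 in a group moved by more than 1.5 times without a single library, as given beside those genes; so few counts limit their precision.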

Other observations

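Of 23 integrin and adhesion genes 8 rose and 12 fell (median -0.36). Vcam1, a ligand of integrins, had 21.8, 24.1 and 21.7 CPM with dexamethasone, against 6.38, 8.92 and 6.63 CPM without (log2 fold change 1.61 ± 0.12, adjusted p = 1.8e-13). Cd9, a tetraspanin, had 53.4, 60.4 and 55.5 CPM with dexamethasone, against 424, 356 and 414 CPM without (log2 fold change -2.82 ± 0.09, adjusted p = 4.1e-18).

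Of 24 purine and G protein signalling genes 5 rose and 12 fell (median -0.56), against 21.9% and 26.5% of all genes. P2ry12, a receptor for ADP, had 18.2, 16.2 and 17.1 CPM with dexamethasone, against 4.98, 7.74 and 5.06 CPM without (log2 fold change 1.52 ± 0.18, adjusted p = 2.5e-08). Gpr34, a receptor for lysophosphatidylserine, had 2.94, 1.78 and 2.31 CPM with dexamethasone, against 17.7, 15.6 and 18.5 CPM without (log2 fold change -2.87 ± 0.22, adjusted p = 1.2e-13). Rgs16, a regulator of G protein signalling, had 0.166, 0 and 0.0420 CPM with dexamethasone, against 2.04, 1.29 and 2.55 CPM without (log2 fold change -4.66 ± 0.53, adjusted p = 9.9e-09), and -6.14 without dexamethasone replicate 1. Of 20 ribosome biogenesis genes 3 rose and 8 fell, with a median of -0.04.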
